A study of Mus musculus with 6 samples.

Results

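Blood vessels are wrapped by mural cells, which are smooth muscle cells on arteries and veins and pericytes on capillaries. Smooth muscle cells contract with a dedicated actin and myosin apparatus, and pericytes are held to the endothelium by PDGF-B, which endothelial cells secrete and the receptor encoded by Pdgfrb on pericytes receives. In teeth, perivascular cells of the pulp and of the tissue around the root are a known source of odontoblast-forming cells, and smooth muscle actin is a common lineage marker in dental mesenchyme. The 10 genes described here are markers of these cells. Of these, 5 are contractile or cytoskeletal genes (Acta2, Tagln, Myh11, Cnn1 and Des) and 5 are pericyte genes (Rgs5, Cspg4, Pdgfrb, Mcam and Kcnj8), out of 23594 genes in the deposited table.

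Transcripts were counted in tissue cut by laser from the apical side of the furcation, where the floor between the roots forms, in mandibular first molars of C57BL/6 mice aged 4.5 days. The 3 control libraries came from mice labelled as wild type. The 3 Lhx6-/- libraries came from littermates homozygous for Lhx6-CreER, an allele with the recombinase knocked into Lhx6, which removes this LIM homeodomain transcription factor of oral and dental mesenchyme from all cells. Each library combined tissue of several molars, and mice of both sexes were collected. Lhx6 stood at 27.8, 18.2 and 21.9 counts per 1000000 (CPM) in the control libraries and at 12.8, 9.82 and 10.5 CPM in the Lhx6-/- libraries, given here and throughout in the order of replicates 1, 2 and 3. A library held between 60132323 and 76157433 estimated counts. Summed over the Y-linked genes Kdm5d, Uty, Ddx3y and Eif2s3y, the levels were 14.6 to 58.0 CPM in control and 55.1 to 92.1 CPM in Lhx6-/- libraries. Xist, made from the inactive X chromosome of females, ran at 792, 411 and 628 CPM in control and 290, 0.228 and 0.0537 CPM in Lhx6-/- libraries. Sex and genotype were thus partly confounded in these pools. Changes of sign, or of an adjusted p across 0.05, with a Y-linked covariate are given for the 10 genes. They are also given for Lhx6, Cldn5, Fbln5, Gja4, Notch3 and Myocd. For Lhx6 the log2 fold change was -1.04 (edgeR adjusted p = 0.021), and -0.61 (edgeR adjusted p = 0.116) with that covariate.

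Of the 5 pericyte genes 4 stood higher in the Lhx6-/- libraries without overlap, and of the 5 contractile genes 1 did. Rgs5, a regulator that shortens G protein signalling and a standard pericyte marker, rose 1.62-fold, and Myh11, the smooth muscle myosin heavy chain, rose 1.83-fold. These 2 of 10 genes met the study's rule, an unadjusted p under 0.05 together with a change of 1.5-fold or more, which 3.28% of the 20114 tested genes met (1.58% higher in Lhx6-/-). After adjustment over the whole table only Rgs5 was under 0.05, against 0.403% of the tested genes (0.323% higher). An unadjusted p under 0.05 with a higher level in Lhx6-/- was reached by 6 of the 10, against 4.75% of all tested genes. In 5 of the 10 no control library reached the lowest Lhx6-/- library, against 7.86% of all tested genes. Without Lhx6-/- replicate 1 the rule was met by 1 gene, Myh11, and without control replicate 3 the edgeR adjusted p of Rgs5 was 0.115. With the Y-linked covariate 3 genes met it, Myh11, Rgs5 and Pdgfrb, and the 1 gene with an adjusted p under 0.05 was Pdgfrb in place of Rgs5 (0.0513). The median log2 fold change was 0.35 over the 10 genes and -0.002 over all tested genes, and 9 of the 10 were higher.

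**Figure D1:**
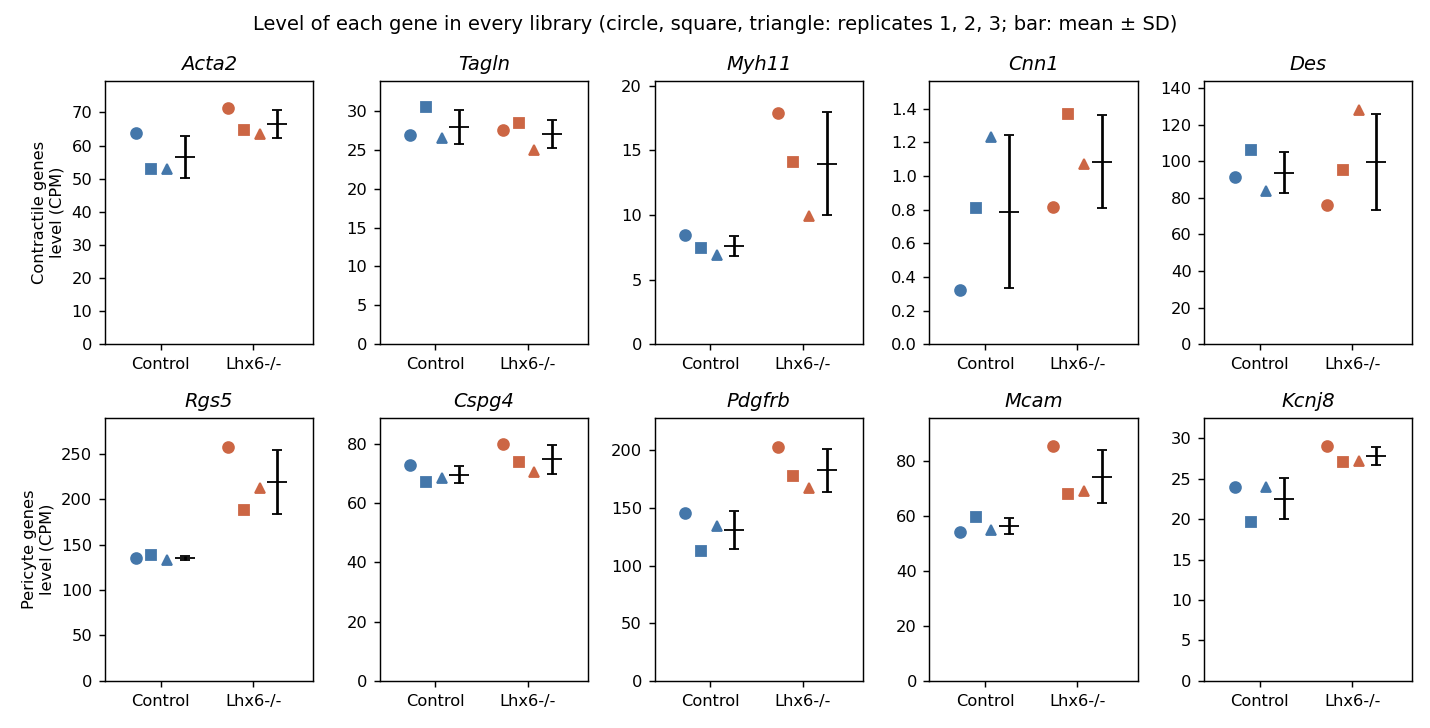
Level of each of the 10 genes in CPM (y axes start at 0) in the 3 control (blue) and 3 Lhx6-/- libraries (orange), with contractile genes in the upper row and pericyte genes in the lower row. Rgs5, Pdgfrb, Mcam, Kcnj8 and Myh11 show no overlap between genotypes, while Tagln, Cnn1 and Des do not separate them.

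In control tissue the order of the genes was read per length, as CPM per kilobase of annotated exons. Rgs5 was first at 29.8 ± 0.50 CPM per kilobase (SD, n = 3), and its lowest library lay above the highest of Acta2. Acta2, Des and Pdgfrb followed at 25.8 ± 2.85, 24.9 ± 2.94 and 23.9 ± 3.07 CPM per kilobase (SD, n = 3 each), and neighbours among these overlapped. Mcam (16.8 CPM per kilobase), Tagln (14.1), Kcnj8 (8.85), Cspg4 (5.83), Myh11 (1.0) and Cnn1 (0.288) came next, each below its neighbour in every control library. Transcripts of the late smooth muscle genes Myh11 and Cnn1 were therefore at the bottom of the order, and those of Rgs5, Acta2, Des and Pdgfrb at the top.

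On mm10, Rgs5 spans bases 169655501 to 169695813 of chromosome 1, on the plus strand. The 250 bases before its start, chr1:169655251-169655500 (GRCm38.p6, from RefSeq), are shown because Rgs5 is the gene of the 10 with the smallest p. Capitals mark TAAT, the core that homeodomain proteins read, searched as TAAT or ATTA on both strands.
Rgs5 upstream: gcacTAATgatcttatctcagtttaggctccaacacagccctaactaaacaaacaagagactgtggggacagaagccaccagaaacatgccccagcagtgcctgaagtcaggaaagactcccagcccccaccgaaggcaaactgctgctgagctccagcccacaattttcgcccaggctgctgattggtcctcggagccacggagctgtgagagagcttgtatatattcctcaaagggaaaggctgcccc

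This window held the 4 letters once, and 54.9% of all 32851 promoter windows of the same length held them at least once. Of the 7 members with a window in the table, Rgs5, Kcnj8 and Acta2 held them. The longer letters TAATTA were in none of the 7 and in 4.84% of all windows.

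Rgs5 stood at 135, 138 and 133 CPM in control libraries. In the Lhx6-/- libraries it stood at 257, 188 and 212 CPM. The control libraries lay within a few CPM of each other, and the lowest Lhx6-/- library was well above all of them. The mean was 135 ± 2.27 CPM in control and 219 ± 35.0 CPM in Lhx6-/- (SD, n = 3 each). The log2 fold change was 0.70 (standard error 0.10, 95% interval 0.48 to 0.92, edgeR adjusted p = 0.0135), which placed Rgs5 at position 27 of all tested genes by p. Over 17 alternative fits its log2 fold change was 0.57 to 0.80, and its adjusted p (8.98e-09 to 0.115) exceeded 0.05 in 3, reaching 0.115 without control replicate 3. Without Lhx6-/- replicate 1 the log2 fold change was 0.57, just under 1.5-fold. Its relative Rgs4, which acts on the same class of G proteins, was also listed among the other mural cell genes. Rgs4 stood at 29.2, 29.3 and 36.2 CPM in control and at 24.0, 31.4 and 27.5 CPM in Lhx6-/- libraries. These levels overlapped, and the change was in the other direction (log2 fold change -0.19, edgeR adjusted p = 0.666).

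Pdgfrb encodes the receptor by which pericytes respond to PDGF-B, and its gene lies on chromosome 18 from 61045150 to 61085061. Its level was 146, 113 and 134 CPM in control and 203, 178 and 167 CPM in Lhx6-/- libraries. The genotypes did not overlap. This gave a log2 fold change of 0.48 (standard error 0.10, 95% interval 0.26 to 0.70, edgeR adjusted p = 0.0955), which missed 0.05 and stayed under 1.5-fold. Over the alternative fits the adjusted p was 0.000908 to 0.455, and was 0.0477 without control replicate 1. With the summed Y-linked level as a covariate, Pdgfrb passed both criteria, with a log2 fold change of 0.78 and an edgeR adjusted p of 0.00683. Pdgfra, the related receptor of mesenchymal cells, stood at 207, 185 and 192 CPM in control and 225, 243 and 231 CPM in Lhx6-/- libraries, again without overlap (log2 fold change 0.26, adjusted p = 0.229). The Pdgfrb level as a percentage of the Pdgfra level was 70.3, 60.8 and 69.9 in control and 90.1, 73.2 and 72.2 in Lhx6-/- libraries, so that the lowest Lhx6-/- library was only slightly above the highest control library.

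Mcam, the adhesion molecule CD146 shared by pericytes and endothelium, stood at 54.4, 59.7 and 54.9 CPM in control libraries. Its Lhx6-/- levels were 85.6, 68.2 and 69.4 CPM. Every Lhx6-/- library was above every control library, with replicate 1 farthest away. Mcam had a log2 fold change of 0.40 (standard error 0.09, 95% interval 0.20 to 0.60, edgeR adjusted p = 0.116).

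Kcnj8 encodes the pore of the ATP-sensitive potassium channel of mural cells, and Abcc9 its regulatory subunit. Kcnj8 stood at 24.0, 19.6 and 24.0 CPM in control and 29.1, 27.1 and 27.2 CPM in Lhx6-/- libraries. Abcc9 stood at 56.6, 55.7 and 56.2 CPM in control and at 63.8, 58.9 and 63.9 CPM in Lhx6-/- libraries. Both subunits were higher in each Lhx6-/- library than in any control library, by small amounts. They gave log2 fold changes of 0.30 for Kcnj8 (standard error 0.10, adjusted p = 0.295) and 0.15 for Abcc9 (standard error 0.07, adjusted p = 0.509), and neither passed the adjusted test in any of 17 alternative fits.

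Cspg4, the NG2 proteoglycan on the pericyte surface, differed from the other pericyte genes in that its genotypes overlapped. It stood at 72.8, 67.2 and 68.5 CPM in control and 80.0, 73.8 and 70.3 CPM in Lhx6-/- libraries. Its log2 fold change was 0.10 with a 95% interval of -0.05 to 0.26 (adjusted p = 0.720), an interval whose upper end is below the lower end for Rgs5 (0.48). Relative to Cspg4 in the same library, Rgs5 was at 185, 205 and 195% in control and at 322, 255 and 302% in Lhx6-/- libraries. These 2 genes thus moved by different amounts in the same libraries, without overlap between genotypes in their ratio.

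The contractile genes differed among themselves. Acta2, the smooth muscle actin, lies on chromosome 19 from 34241090 to 34255590 on the minus strand, and serum response factor is known to act on it through CArG boxes. A search for a pair of C, 6 bases of which at least 5 were A or T, and a pair of G found 2 matches in the 250 bases before its RefSeq start and none in the other 6 members with a window, against 8.59% of all windows with any match. The matches are shown in capitals on the minus strand with 10 bases on each side. They begin 84 and 34 bases before the start, and 217 of the 250 bases lie inside an exon annotated in GENCODE vM21, whose Acta2 gene starts farther upstream.
Acta2 chr19:34255438-34255467: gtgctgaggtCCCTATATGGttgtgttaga
Acta2 chr19:34255388-34255417: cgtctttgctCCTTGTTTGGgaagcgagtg

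Acta2 stood at 63.8, 53.0 and 52.9 CPM in control and 71.2, 64.6 and 63.6 CPM in Lhx6-/- libraries. Control replicate 1 reached into the Lhx6-/- range, so the genotypes overlapped. The log2 fold change was 0.23 (standard error 0.09, 95% interval 0.04 to 0.42, edgeR adjusted p = 0.384), and it stayed between 0.18 and 0.36 over the alternative fits with an adjusted p of 0.125 to 0.948.

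Myh11, the motor of contractile smooth muscle, lies on chromosome 16 from 14194535 to 14291372. Its level was 8.48, 7.41 and 6.93 CPM in control and 17.9, 14.1 and 9.92 CPM in Lhx6-/- libraries. The Lhx6-/- libraries were spread widely, and all were above control. The log2 fold change was 0.87 (standard error 0.19, 95% interval 0.45 to 1.30, edgeR adjusted p = 0.116), the largest of the 10 in the fit of all libraries. Its adjusted p was under 0.05 in 3 of 17 alternative fits (range 0.00143 to 0.526), one of them the fit without Lhx6-/- replicate 3, at 0.0192 with a log2 fold change of 1.07. Set against Acta2 of the same library, Myh11 was at 13.3, 14 and 13.1% in control and 25.1, 21.8 and 15.6% in Lhx6-/- libraries. The ratio did not overlap between genotypes, though Lhx6-/- replicate 3 (15.6%) was close to control replicate 2 (14%). This ratio was chosen after its values were seen and was not tested.

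Tagln encodes transgelin, an actin-bundling protein of smooth muscle. It stood at 26.9, 30.5 and 26.5 CPM in control and 27.5, 28.5 and 25.0 CPM in Lhx6-/- libraries. The levels overlapped throughout. Tagln had a log2 fold change of -0.05 with a 95% interval of -0.25 to 0.14, and its sign turned without control replicate 2 (0.016) and without Lhx6-/- replicate 3 (0.002). Of the 75-base windows of its annotated transcripts, 53.3% also occur in the opposite-strand genes Pcsk7 and Gm48529, and since counting by strand is not stated in the sources used here, reads of these genes cannot be told apart. Pcsk7 stood at 23.5 to 31.3 CPM in control and 27.4 to 30.1 CPM in Lhx6-/- libraries.

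Cnn1, calponin of differentiated smooth muscle, had few counts, with 20, 54 and 73 in control and 50, 102 and 80 in Lhx6-/- libraries. As CPM these were 0.321, 0.808 and 1.23, and 0.818, 1.37 and 1.07. Its log2 fold change of 0.47 had a 95% interval of -0.56 to 1.49, which spans both a fall and a 1.5-fold rise at this depth. Its relatives Cnn2 and Cnn3, which many cell types express, stood at 267 to 327 CPM and 183 to 205 CPM over the 6 libraries, with log2 fold changes of 0.08 and 0.01.

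Des encodes desmin, an intermediate filament of smooth muscle and pericytes that skeletal muscle fibres also contain in quantity. It stood at 91.6, 106 and 83.7 CPM in control and 76.3, 95 and 128 CPM in Lhx6-/- libraries. Skeletal muscle RNA was in every library, with 19 of 19 listed genes measured and summed levels of 2308, 2959 and 2116 CPM in control and 2283, 3101 and 3493 CPM in Lhx6-/- libraries. Within each genotype the order of the libraries by Des was the order by that sum. Des as a percentage of the sum was 3.97, 3.57 and 3.96 in control and 3.34, 3.06 and 3.66 in Lhx6-/- libraries. Between genotypes the log2 fold change of Des was 0.09 with a 95% interval of -0.37 to 0.55. It was -0.127 without Lhx6-/- replicate 3 and -0.277 with the Y-linked covariate. How much of the Des signal came from mural cells was not tested.

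**Figure D2:**
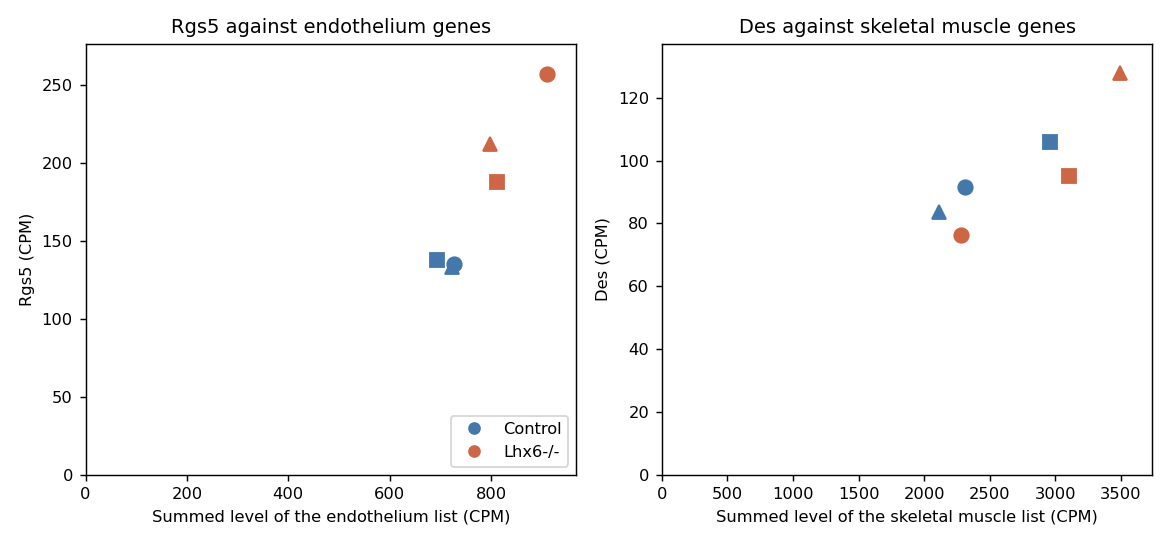
Left, Rgs5 in CPM against the summed CPM of 20 endothelial genes, and right, Des in CPM against the summed CPM of 19 skeletal muscle genes, each point a library (blue control, orange Lhx6-/-, circle, square and triangle for replicates 1, 2 and 3). The Lhx6-/- libraries lie above and to the right of control on the left, and on the right Des is highest in the library with the highest muscle sum, while Lhx6-/- replicates 1 and 2 (76.3 and 95 CPM) lie below the control libraries of similar sum (91.6 and 106 CPM).

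In bulk tissue a difference in the number of mural cells cannot be told apart from a difference in RNA per cell. Endothelial markers moved with the pericyte genes. All 20 listed endothelial genes were tested, all 20 had a positive log2 fold change and the list median was 0.22. In 11 the Lhx6-/- libraries were higher without overlap, against 7.86% of all tested genes. The fold and p rule was met by 2, against 1.58% of all tested genes in this direction. An edgeR adjusted p under 0.05 was reached by 1, against 0.323%. The endothelial sum was 727, 694 and 723 CPM in control and 911, 812 and 797 CPM in Lhx6-/- libraries. The sum of the 5 pericyte genes was 432, 397 and 415 CPM in control and 655, 535 and 546 CPM in Lhx6-/- libraries. Both sums were thus highest in Lhx6-/- replicate 1 and lowest in control replicate 2, and both separated the genotypes. The 3 endothelial genes with the smallest p were Cldn5, a tight junction protein (log2 fold change 0.64, adjusted p = 0.0140), Cdh5, the endothelial cadherin (0.37, adjusted p = 0.0850), and Vwf (0.72, adjusted p = 0.160). For Cldn5 5 of 17 alternative fits gave an adjusted p over 0.05 (range 5.34e-06 to 0.106), among them the fits without control replicate 3 (0.0837) and without Lhx6-/- replicate 1 (0.0836) or 2 (0.0941). With the Y-linked covariate the edgeR adjusted p of Cldn5 was 0.076.

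Each gene was also set against the endothelial sum of its own library. Rgs5 was at 18.5, 19.9 and 18.4% of that sum in control and at 28.3, 23.2 and 26.7% in Lhx6-/- libraries, without overlap. Pdgfrb, at 20.1, 16.2 and 18.6% in control and 22.3, 21.9 and 21.0% in Lhx6-/- libraries, and Myh11, at 0.958 to 1.17% and 1.24 to 1.96%, also kept the Lhx6-/- libraries above control. For Tagln and Cspg4 the Lhx6-/- libraries lay below control. Cspg4 was at no less than 9.47% in control and 8.79 to 9.08% in Lhx6-/- libraries. The endothelial sum was itself higher in every Lhx6-/- library, so the ratio of a gene with an unchanged level falls. In CPM, Tagln and Cspg4 had log2 fold changes of -0.05 and 0.10. How many of all genes separate the genotypes by this ratio was not counted. The ratios of Acta2, Mcam, Kcnj8, Cnn1 and Des overlapped between genotypes. On average the ratio was 1.37-fold higher in Lhx6-/- libraries for Rgs5, 1.52-fold for Myh11 and 1.19-fold for Pdgfrb.

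**Figure D3:**
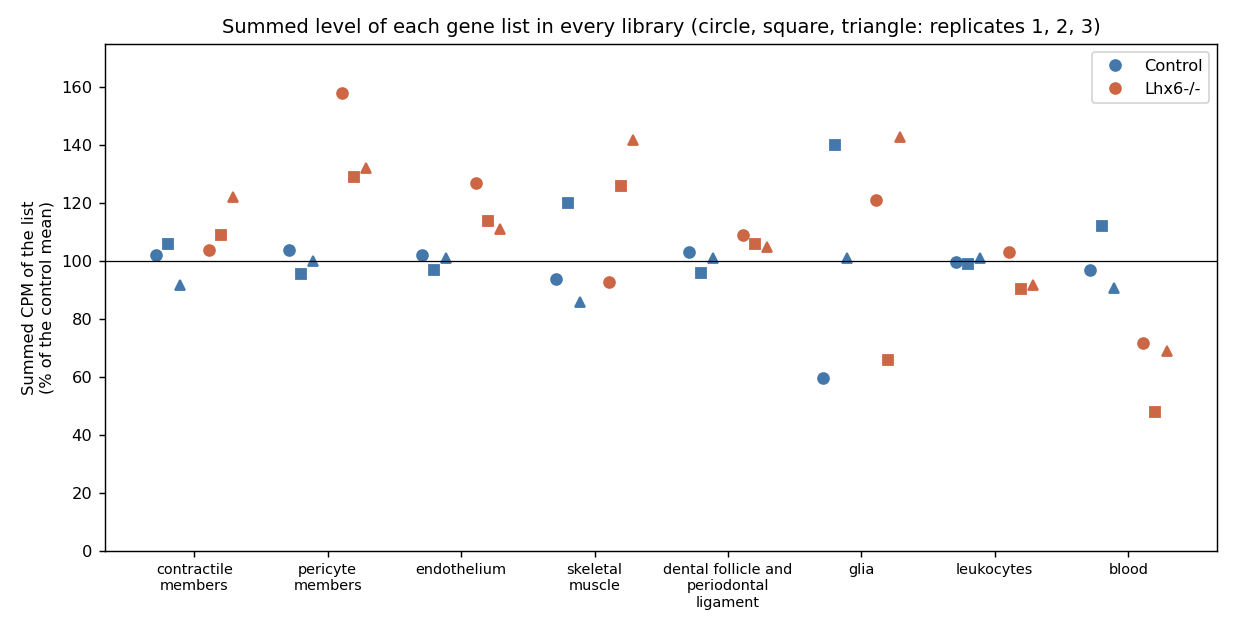
Summed CPM of each gene list in each library, as a percentage of the mean of the 3 control libraries (line at 100), for control (blue) and Lhx6-/- libraries (orange). The pericyte sum was 129 to 158% in the Lhx6-/- libraries and the endothelial sum 111 to 127%, while the blood sum was 48.0 to 71.8% and the skeletal muscle and glial sums overlapped.

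Other cell types moved in both directions. Blood genes, led by the globins, summed to 3037 to 3765 CPM in control and 1610 to 2405 CPM in Lhx6-/- libraries, with 7 of 7 genes lower. Dental epithelium genes were lower for 14 of 15, with a median of -0.62 on the log2 scale. The fold and p rule was met by 7, all lower, against 3.28% of all tested genes in either direction. Krt17 (-1.03) was among these 7. The enamel genes Amelx and Ambn nevertheless kept the summed level at 136129 to 146028 CPM in control and 115407 to 146754 CPM in Lhx6-/- libraries. Follicle and periodontal ligament genes summed to 4470 to 4803 CPM in control and 4885 to 5103 CPM in Lhx6-/- libraries, and Fbln5, an elastic fibre protein that vessel walls also contain, had a log2 fold change of 0.49 (adjusted p = 0.0394). For Fbln5 9 of 17 alternative fits gave an adjusted p over 0.05 (range 0.000408 to 0.210), among them the fits without control replicate 1 (0.0827) or 3 (0.210) and without Lhx6-/- replicate 1 (0.190), 2 (0.117) or 3 (0.0988). With the Y-linked covariate the edgeR adjusted p of Fbln5 was 0.162. Glial sums (312 to 730 and 345 to 748 CPM) and leukocyte sums (389 to 399 and 356 to 404 CPM) overlapped. Of 11 glial genes 10 were nevertheless higher, with a median of 0.38 on the log2 scale (0.01 to 0.58 over the alternative fits). The fold and p rule was met by 2 of them, both higher, against 1.58% of all tested genes. An edgeR adjusted p under 0.05 was reached by 1, against 0.323%. The part of these cells in the results for the 10 genes was not tested.

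The wider contractile list held 31 tested genes besides the 5 members, of which 23 were higher and 8 lower (median on the log2 scale 0.10). The study's rule was met by 1 of the 31 (Itga8, higher), against 1.58% of all tested genes in this direction. An edgeR adjusted p under 0.05 was reached by 1 (Mylk, higher), against 0.323%. Mylk, the kinase that activates smooth muscle myosin, stood at 55.2, 48.8 and 61.2 CPM in control and 81.1, 78.2 and 71.6 CPM in Lhx6-/- libraries, without overlap. Its log2 fold change was 0.48 (standard error 0.09, edgeR adjusted p = 0.0405), and 8 of 17 alternative fits gave an adjusted p over 0.05 (range 0.000320 to 0.256), including all 6 that left out 1 library (0.0504 to 0.221). Itga8, an integrin of contractile and mesangial cells, stood at 6.94, 6.52 and 7.46 CPM in control and 11.4, 11.3 and 9.23 CPM in Lhx6-/- libraries (log2 fold change 0.61, adjusted p = 0.109). The regulators of the contractile programme overlapped between genotypes. Srf stood at 23.9 to 28.4 and 27.8 to 30.2 CPM (log2 fold change 0.12, adjusted p = 0.739), and Myocd, the smooth muscle cofactor of Srf, was under 1 CPM in every library. Summed over the list, the level was 3010 to 3108 CPM in control and 3034 to 3115 CPM in Lhx6-/- libraries. Most of this sum came from Tpm1, Flna and Myl6, with control means of 923, 473 and 368 CPM. It therefore says little about the listed genes of low level.

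Among relatives of the members that other cells use, none met the rule. Acta1, the skeletal muscle actin, stood at 492 to 644 CPM in control and 545 to 886 CPM in Lhx6-/- libraries. Actg2, the actin of visceral smooth muscle, was at 1.5 to 2.08 and 2.06 to 2.23 CPM, and Tagln2 at 136 to 151 and 141 to 146 CPM. Vim, the general mesenchymal filament, was higher without overlap at 962 to 1002 CPM in control and 1063 to 1079 CPM in Lhx6-/- libraries, with a log2 fold change of 0.12 (adjusted p = 0.653).

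Other mural cell genes numbered 31 tested, of which 24 were higher and 7 lower (median on the log2 scale 0.15). An unadjusted p under 0.05 was reached by 9, all higher, against 4.75% of all tested genes in this direction. Without overlap, 11 were higher, against 7.86% of all tested genes, and 1, Higd1b, was lower. Gja4, a gap junction protein of arterial endothelium and mural cells, had the smallest p, with 9.59, 9.26 and 8.23 CPM in control and 17.6, 13.7 and 14.2 CPM in Lhx6-/- libraries. It rose 1.68-fold (log2 fold change 0.75, standard error 0.13, edgeR adjusted p = 0.0299), and 7 of 17 alternative fits gave an adjusted p over 0.05 (range 9.52e-05 to 0.187), 5 of them by leaving out control replicate 2 (0.0548), control replicate 3 (0.187) or Lhx6-/- replicate 1 (0.159), 2 (0.0941) or 3 (0.0584). With the Y-linked covariate the edgeR adjusted p of Gja4 was 0.0767. Olfr78, an olfactory receptor present in some vascular smooth muscle, met the rule at under 1 CPM in every library (log2 fold change 1.70, adjusted p = 0.353). Notch3, the Notch receptor of mural cells, stood at 92.6, 73.9 and 89.0 CPM in control and 124, 102 and 101 CPM in Lhx6-/- libraries, without overlap (log2 fold change 0.36, adjusted p = 0.248). With the Y-linked covariate its log2 fold change was 0.67 and its edgeR adjusted p 0.0120 (range over all alternatives 0.0120 to 0.762). Higd1b and Vtn, which mark brain pericytes, were low. Higd1b stood at 0.723, 0.808 and 0.761 CPM in control and 0.606, 0.201 and 0.484 CPM in Lhx6-/- libraries (log2 fold change -0.83, adjusted p = 0.665). Vtn was at 0.402 to 0.795 CPM and 0.873 to 1.09 CPM, so the pericyte label rests on the other genes here.

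The PDGF and angiopoietin list, with Notch, TGF-beta, sphingosine phosphate and endothelin genes, contained 22 tested genes, of which 20 were higher and 2 lower (median on the log2 scale 0.17). Among ligands, Pdgfb stood at 34.0, 29.6 and 32.0 CPM in control and 39.9, 34.9 and 35.2 CPM in Lhx6-/- libraries. The 2 groups did not overlap, and the log2 fold change was 0.20 (standard error 0.09, adjusted p = 0.480). Angpt4 met the rule at 23.7, 16.8 and 16.0 CPM in control and 43.7, 27.2 and 28.7 CPM in Lhx6-/- libraries (log2 fold change 0.82, adjusted p = 0.295). Edn1, the vasoconstrictor endothelin, also met it at 1.08, 1.20 and 1.08 CPM against 1.67, 2.03 and 1.87 CPM (log2 fold change 0.73, adjusted p = 0.386). Of the receptors, S1pr3, a sphingosine phosphate receptor of smooth muscle, stood at 104, 99.6 and 104 CPM in control and 154, 133 and 134 CPM in Lhx6-/- libraries. S1pr3 rose by a log2 fold change of 0.45 (standard error 0.07, edgeR adjusted p = 0.0255), and 5 of 17 alternative fits gave an adjusted p over 0.05 (range 1.81e-05 to 0.155), 4 of them by leaving out control replicate 2 (0.0528), control replicate 3 (0.155) or Lhx6-/- replicate 1 (0.131) or 2 (0.0943).

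**Figure D4:**
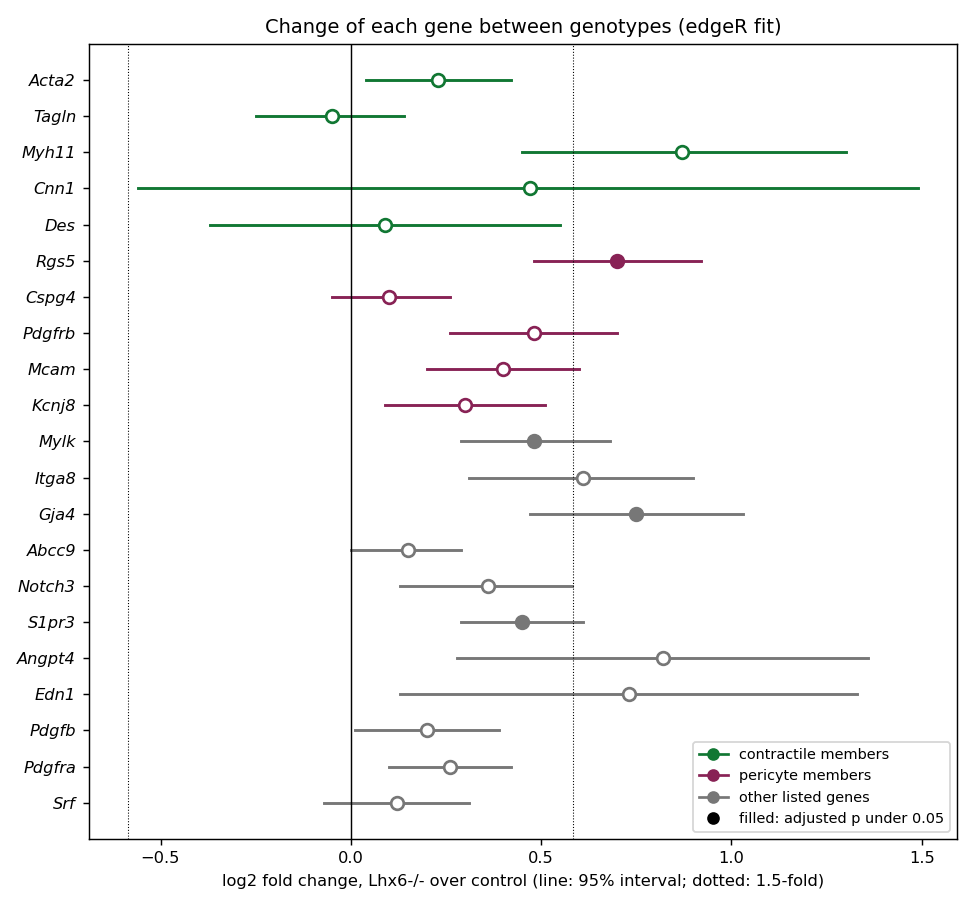
Log2 fold change of Lhx6-/- over control with its 95% interval for the 5 contractile genes (green), the 5 pericyte genes (purple) and other named genes (grey), filled where the adjusted p was under 0.05 and with dotted lines at 1.5-fold. Rgs5, Mylk, Gja4 and S1pr3 are filled, and the interval of Cspg4 ends below that of Rgs5.

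The 10 genes were last compared by their levels over the 6 libraries. The measure was the root mean square difference of log2 CPM after each gene was centred on its own mean. Genes were not scaled by their spread, so genes that varied little come out close whatever their pattern. Acta2 and Cspg4 were each other's nearest gene at 0.09, and the SD of Cspg4 itself over the 6 libraries was 0.09 on this scale. Pdgfrb was nearest to Kcnj8 (0.11), Rgs5 to Mcam (0.16) and Myh11 to Rgs5 (0.24). Cnn1, with few counts, had no close neighbour, its nearest being Mcam at 0.63, and its own SD was 0.72. Lhx6-/- replicate 1 held the highest level of all 5 pericyte genes, but of only 2 of the 5 contractile genes, so 1 library weighed on the pericyte pattern. Without it the Rgs5 log2 fold change was 0.57, and Lhx6-/- replicates 2 and 3 were still above every control library in 5 and 4 of the 5 pericyte genes.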

How the data were processed

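Libraries of 75-cycle single-end reads were aligned with STAR 2.6.1d to mm10 and quantified in Partek, per the labels. The authors deposited estimated counts per gene for 6 libraries, without normalization, and a table of their own comparison whose ratios, fold changes and p-values were not used. That table's mean values, the authors' CPM plus 1, served only to check the gene order. Estimated counts were rounded. CPM values carry TMM factors (0.977 to 1.04). The main test was edgeR 4.0.16 (R 4.3.3, limma 3.58.1), quasi-likelihood, robust, default expression filter (20114 genes), genotype only, two-sided, with Benjamini-Hochberg adjustment over all tested genes. Standard errors were derived from the F statistic and the log2 fold change. With 3 libraries against 3 an exact permutation p cannot go below 0.1. Mutants were littermates of controls and the study names 3 pairs of samples, but not which libraries form a pair. The main fit therefore has no block, and its p-values measure the spread between these libraries. Code was tested on simulated counts. Alternatives included other scalings and filters, DESeq2 1.42.0, limma, a replicate block, covariates for Y-linked and epithelial genes, other thresholds and each library left out. Exon lengths and coordinates come from GENCODE vM21 and promoter sequences from RefSeq (GRCm38.p6), where 7 of 10 members had an entry. The members and gene lists were chosen with earlier results of these data known. Named genes were the 10 members, listed genes that met the rule or had an adjusted p under 0.1, partners and paralogs of members, and up to 3 marker genes of smallest p per list. Krt17, Vtn, Higd1b, Pcsk7 and the ratios between genes were chosen after their values were seen. Figures were drawn with matplotlib.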

Additional observations from a re-analysis of the deposited data

How the results depend on the processing

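Of 170 log2 fold changes of the 10 genes under 17 alternative fits, 4 changed sign. Tagln ran from -0.09 to 0.016 when 1 library was left out, turning positive without control replicate 2 (0.016) or Lhx6-/- replicate 3 (0.002). Des ran from -0.127 to 0.25, turning negative without Lhx6-/- replicate 3, and was -0.277 with a Y-linked covariate. Myocd, low in every library, ran from -0.026 to 1.26, turning negative without control replicate 1 (-0.026) or control replicate 3 (-0.012), and was -0.738 with the Y-linked covariate. The rule of fold and p was met by 2 genes, and 1 to 2 when 1 library was left out, 3 with the Y-linked covariate (Myh11, Rgs5 and Pdgfrb), 0 at 2-fold or more and 6 with no minimum fold. Genes with an adjusted p under 0.05 numbered 1, and 0 to 2 when 1 library was left out, 0 with an epithelial covariate, 4 in DESeq2 (Myh11, Rgs5, Pdgfrb and Mcam) and 2 at an adjusted p under 0.1. The adjusted p of Rgs5 was 0.0513 with the Y-linked covariate, where Pdgfrb was the 1 gene under 0.05 (0.00683), and 0.0677 with the epithelial covariate. The epithelial covariate was the log2 of the summed level of the listed epithelial genes, most of which came from Amelx and Ambn. That sum overlapped between genotypes, while Krt14, Krt5 and Krt17 were lower in Lhx6-/- libraries without overlap. In the epithelial fit and in the fit without control replicate 3, where no member had an edgeR adjusted p under 0.05, 5 of the 10 in each had an unadjusted p under 0.05. The cause of these changes was not tested. The study describes 3 pairs of samples without naming them, and the mutant libraries are numbered 1 to 3 in the titles but 2 to 4 in the count table. Libraries with the same replicate number in the titles did not deviate together (correlations 0.026, -0.029 and -0.031). Pairing by the other numbers was not tried. With a block by the titles' numbers, 3 of the 10 genes had an edgeR adjusted p under 0.05 (Rgs5, Myh11 at 0.0188 and Pdgfrb at 0.0247). Per kilobase of the longest transcript instead of all exons, mean levels over the 6 libraries moved by more than 1 SD for 5 genes. These were Tagln (13.8 to 17.2), Des (25.7 to 31.9), Rgs5 (39.0 to 43.3), Cspg4 (6.04 to 8.88) and Mcam (19.5 to 21.9). In the order of these means 8 of the 10 genes kept their place, while Des passed Pdgfrb (28.6 to 28.9). Over all genes, the 660 that met the rule became 1178 with the Y-linked covariate and 968 without control replicate 1, and the 81 with an adjusted p under 0.05 became 315 in DESeq2, 134 with the block, 235 and 16 with the Y-linked and epithelial covariates, and 127, 12, 31 and 20 without control replicate 1, control replicate 3, Lhx6-/- replicate 1 and Lhx6-/- replicate 2. The depth limited Cnn1, Myocd, Vtn, Higd1b and Olfr78, and Kcnmb1 and Atp13a5 were too low to test.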

Other observations

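Among the contractile genes, Pln, the regulator of the calcium pump of slow and cardiac muscle, had a pattern of 1 library. It stood at 0.0643, 25.5 and 0.169 CPM in control replicates 1, 2 and 3 and at 0.376, 0.403 and 0.322 CPM in Lhx6-/- replicates 1, 2 and 3. Actc1, the cardiac actin that developing skeletal muscle also makes, was likewise highest in control replicate 2, at 60.5 CPM against 12.3 to 23.5 CPM in the other 5 libraries. Acta2, Tagln and Myh11 in control replicate 2 were at 53.0, 30.5 and 7.41 CPM, with only Tagln above the other control libraries. Pln was singled out after its values were seen.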
